A study of Rattus norvegicus with 6 samples.

Results

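The regulators of G protein signalling (RGS proteins) described here are 10 genes, Rgs2, Rgs3, Rgs4, Rgs5, Rgs7, Rgs10, Rgs12, Rgs14, Rgs16 and Rgs19, taken by their symbols from the 30945 genes in the count files. RNA was sequenced from primary vascular smooth muscle cells of the rat in 6 libraries. In the libraries labelled siRNA_ANK (3 libraries) the cells had received an siRNA named for ANK, and in the negative control libraries (3 libraries) the cells had received a negative control. The series title calls the first cells deficient in ANK, the pyrophosphate-releasing membrane protein made by Ankh. All libraries come from the same cell type, and no strain, passage, siRNA sequence or time after transfection is given in the labels. Nothing in the labels says that replicates are separate cultures or animals; the p-values then speak only of the spread among these libraries, which may be technical.

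A heterotrimeric G protein is switched on when its alpha subunit binds GTP after a receptor is stimulated, and it switches off when the GTP is hydrolysed. RGS proteins bind the active alpha subunit through their RGS domain and speed up this hydrolysis, so that they shorten the signal of the receptor. In arterial smooth muscle they limit contraction and calcium signals driven by receptors such as those of angiotensin, endothelin and thromboxane, most of which couple to Gq, Gi or both. The family is divided by sequence into small R4 proteins (Rgs2, Rgs3, Rgs4, Rgs5 and Rgs16 here), R7 proteins that pair with the beta subunit Gnb5 (Rgs7), R12 proteins (Rgs10, Rgs12 and Rgs14) and RZ proteins with a cysteine string (Rgs19).

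Of the RGS genes described here, 5 of 10 lie on chromosome 13 in the coordinates of the files (build mRatBN7.2), as do 10 of all 21 RGS genes in the files. Rgs5 (81836304 to 81885518, plus strand) and Rgs4 (81936775 to 81943068, minus strand) are next to each other, 51256 bases apart, with no listed gene between them. Rgs16 (65887530 to 65892857, plus strand) follows Rgs8 (65804797 to 65846807, plus strand) after 40722 bases, again with no listed gene between them. Rgs2 (55798829 to 55802385, minus strand) and Rgs7 (86979279 to 87408888, minus strand) lie elsewhere on that chromosome. The other members are Rgs3 on chromosome 5 (76022001 to 76161894), Rgs10 on chromosome 1 (182946336 to 182987697), Rgs12 on chromosome 14 (75715934 to 75794596), Rgs14 on chromosome 17 (9249019 to 9263104) and Rgs19 on chromosome 3 (168804874 to 168810097). All are annotated as protein-coding.

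The 250 bases before the RefSeq start are shown for the neighbours Rgs5 and Rgs4 and the neighbours Rgs8 and Rgs16, picked after their values were seen. The direction of Rgs5 was fixed by the filter on counts, which only its siRNA_ANK libraries passed, so no joint change is read from its pair. These sequences were taken from the assembly GRCr8, whose coordinates differ from those of the files, and are written 5′ to 3′ on the strand of the gene. Capitals mark 3 motifs, found on either strand: the TATA box (TATAAA), the half-site of the cAMP response element (TGACG) and the CCAAT box (CCAAT).
Rgs4, chr13:84475885-84476134, minus strand: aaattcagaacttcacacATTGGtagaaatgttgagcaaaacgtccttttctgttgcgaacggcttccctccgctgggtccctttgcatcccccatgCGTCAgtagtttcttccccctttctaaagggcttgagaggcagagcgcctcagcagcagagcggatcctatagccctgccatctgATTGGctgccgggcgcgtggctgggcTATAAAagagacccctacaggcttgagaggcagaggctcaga
Rgs5, chr13:84380827-84381076, plus strand: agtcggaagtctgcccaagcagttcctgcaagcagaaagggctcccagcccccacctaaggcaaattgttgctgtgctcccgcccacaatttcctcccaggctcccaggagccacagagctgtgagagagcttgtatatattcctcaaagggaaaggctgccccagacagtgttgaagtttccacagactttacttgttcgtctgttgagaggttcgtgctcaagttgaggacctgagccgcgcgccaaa
Rgs16, chr13:68437870-68438119, plus strand: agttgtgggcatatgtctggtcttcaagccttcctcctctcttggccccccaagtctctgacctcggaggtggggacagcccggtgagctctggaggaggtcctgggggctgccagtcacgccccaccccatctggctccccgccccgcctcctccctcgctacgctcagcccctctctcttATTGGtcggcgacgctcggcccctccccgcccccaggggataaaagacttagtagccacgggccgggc
Rgs8, chr13:68366648-68366897, plus strand: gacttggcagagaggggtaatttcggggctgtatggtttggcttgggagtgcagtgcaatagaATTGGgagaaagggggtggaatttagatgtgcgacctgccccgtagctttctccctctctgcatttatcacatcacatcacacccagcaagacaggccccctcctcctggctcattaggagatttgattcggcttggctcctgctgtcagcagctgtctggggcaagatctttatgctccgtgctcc

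The window of Rgs4 held a TATA box at -42 to -37, a cAMP half-site at -153 to -149 and CCAAT boxes at -232 to -228 and -68 to -64, counted back from the start, and no 2 of these matches overlapped. A CCAAT box lay at -68 to -64 in the window of Rgs16 and at -187 to -183 in that of Rgs8, while the window of Rgs5 held none of the motifs. All 10 genes had a RefSeq window; 2 of them held the TATA box, 3 the cAMP half-site and 3 the CCAAT box. Among all 33465 windows of this length, 12.9% held the TATA box, 18.2% the half-site and 34% the CCAAT box. Of 2 further motifs, the AP-1 site (TGANTCA) was found in 1 of the 10 windows, that of Rgs12, and in 6.34% of all windows. The CArG box, the site of serum response factor, was found in 0 of the 10 windows and in 1.5% of all windows. The share of G and C was 54.4% in the windows of Rgs4 and Rgs5, 66.8% in that of Rgs16 and 53.6% in that of Rgs8, and over the 10 members it ran from 54.4% to 77.6% (Rgs10), against a median of 51.2% for all windows.

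Library totals were 16020392 to 17065297 counts in siRNA_ANK and 15641259 to 17441548 in the negative controls, so that 1 count is worth 0.0563 to 0.0633 CPM. CPM here are counts relative to the library size after TMM scaling. Ankh, the targeted gene, measured 84.9, 76.7 and 120 CPM in siRNA_ANK replicates 1, 2 and 3, against 338, 351 and 367 CPM in the negative controls. On the first principal component, siRNA_ANK replicate 3 (25.4) and negative control replicate 2 (-26.7) stood closest to the opposite group, with the remaining libraries at 36.3 and 40.4 in siRNA_ANK and at -36.3 and -39.1 in the controls. Results are therefore also given without both of these libraries where that matters. Defining smooth muscle genes such as Acta2 (2882 ± 250 CPM in siRNA_ANK, 1344 ± 280 CPM in the controls) were abundant. Smooth muscle markers summed to 5155 to 6173 CPM in siRNA_ANK and 2595 to 3608 CPM in the controls. Of these, 7 of 8 were called higher (edgeR, adjusted p under 0.05), against 19.9% of all genes tested. The call of Cnn1 was lost when any single library except negative control replicate 2 was left out (edgeR adjusted p from 0.0555 to 0.163). Fibroblast markers summed to 395 to 440 CPM in siRNA_ANK and 225 to 257 CPM in the controls. Again 7 of 8 were called higher, against 19.9% of all genes tested, among them Lum (97.3 ± 5.58 and 47.2 ± 3.44 CPM). Endothelial markers summed to 0.899 to 1.58 CPM in siRNA_ANK and 0.749 to 1.07 CPM in the controls, with Cdh5, Kdr, Tie1 and Emcn at 0 counts, and macrophage markers to 0.570 to 1.26 and 0.956 to 1.19 CPM, with Adgre1, Cd163, Ptprc, C1qa and C1qb at 0. Neural and glial markers summed to 11.8 to 17.5 and 16.9 to 19.5 CPM, with Snap25 at 0. Whether the shift in muscle and fibroblast markers plays a part in the RGS differences was not tested, and in bulk RNA fewer cells of a type and less RNA per cell cannot be told apart.

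Of the 10 genes, 9 had enough counts to be tested. Rgs4, Rgs5 and Rgs10 were higher and Rgs2 and Rgs16 lower in siRNA_ANK cells by edgeR's quasi-likelihood test at an adjusted p under 0.05, while Rgs3, Rgs7, Rgs12 and Rgs19 did not pass. That is 5 of 9 tested genes (55.6%), where 40.1% of all 13016 genes tested were called. By direction, 3 of 9 were higher and 2 of 9 lower, against 19.9% and 20.2% of all genes tested. Separate CPM ranges in both groups were seen for 4 of the 9 genes, against 51.1% of all genes tested. Rgs5 entered the test only through the siRNA_ANK libraries, since all 3 control libraries fell below the count filter, so it had to differ and adds no weight to these shares. The median log2 fold change of the 9 genes was 0.19 (siRNA_ANK over negative control), and that of all genes tested was 0.01.

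**Figure D1:**
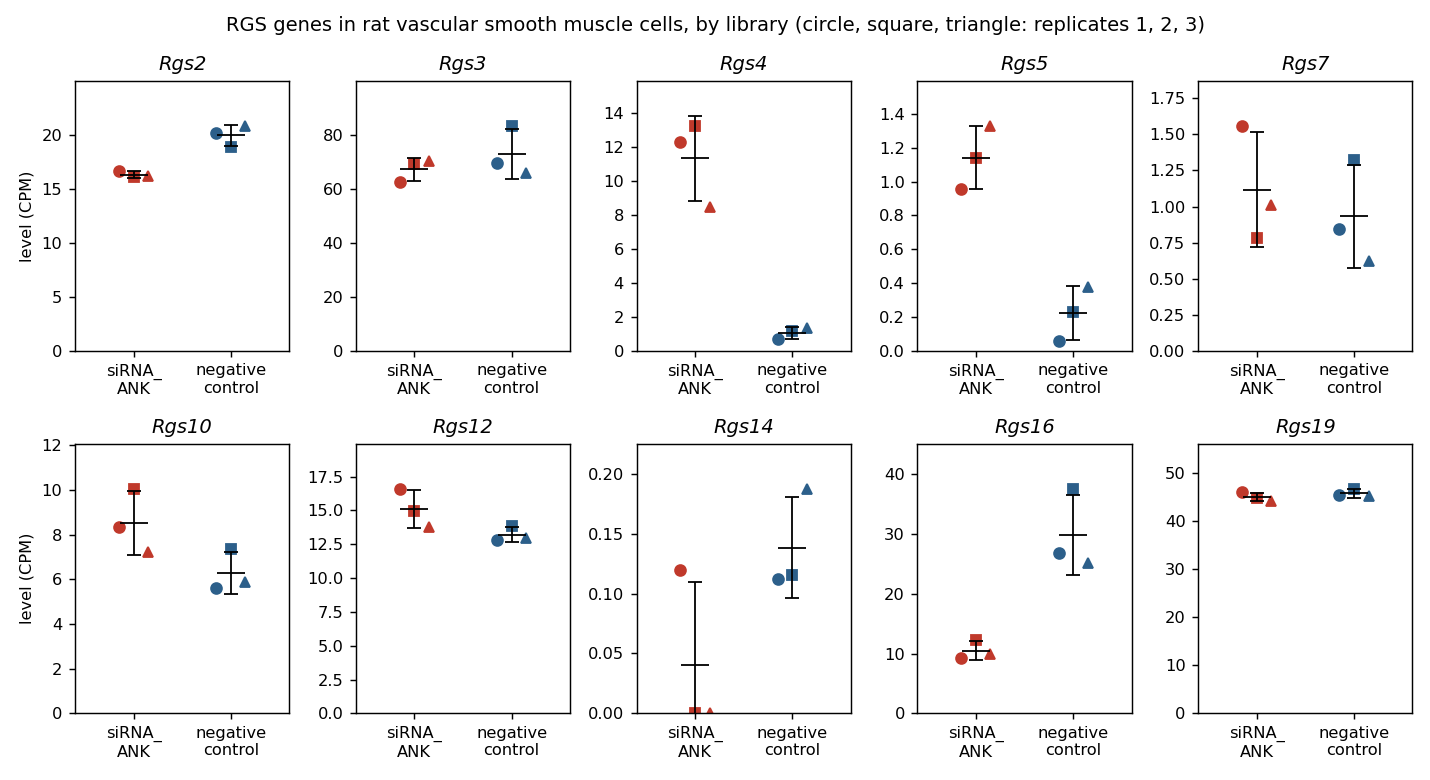
Level of each RGS gene (CPM, linear axes from 0, a scale of its own in each panel) in the 3 siRNA_ANK libraries (red, left) and the 3 negative control libraries (blue, right), with the mean and SD in black; circles, squares and triangles are replicates 1, 2 and 3, and the lower SD bar of Rgs14 is cut off at 0. The groups stand apart for Rgs4, Rgs5, Rgs2 and Rgs16, and overlap for the other 6 genes.

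Among the R4 genes, Rgs4 differed most. Its protein acts on Gi and Gq alpha subunits and is short-lived, because its exposed cysteine end is recognised by the N-degron route of protein degradation. Rgs4 measured 12.3, 13.2 and 8.48 CPM in siRNA_ANK replicates 1, 2 and 3, against 0.675, 1.15 and 1.31 CPM in the negative controls. These values rest on 205, 221 and 134 counts in siRNA_ANK and 12, 20 and 21 in the controls. Every siRNA_ANK library was above every control library, and the lowest siRNA_ANK value was that of replicate 3. Rgs4 rose 10.9-fold, to 11.3 ± 2.52 CPM in siRNA_ANK against 1.05 ± 0.331 CPM in the controls (SD, n = 3 each; log2 fold change 3.44 ± 0.25 SE, edgeR adjusted p = 1.14e-07). It ranked 21st from the top among the 13016 log2 fold changes. Without siRNA_ANK replicate 3 and negative control replicate 2 its log2 fold change was 3.69.

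Rgs5, its neighbour on chromosome 13, is a marker of pericytes and of arterial smooth muscle in the vessel wall, and its protein damps Gi and Gq signals as well. It was rare in these cultured cells, with 16, 19 and 21 counts in siRNA_ANK (0.959, 1.14 and 1.33 CPM) and 1, 4 and 6 in the negative controls (0.0563, 0.230 and 0.375 CPM). All siRNA_ANK values lay above all control values. Rgs5 averaged 1.14 ± 0.185 CPM in siRNA_ANK, against 0.220 ± 0.160 CPM in the controls (log2 fold change 2.36 ± 0.50). Because Rgs5 entered the test only through the siRNA_ANK libraries, this separation was fixed by the count filter, and its p is not given. Its log2 fold change ran from 1.90 to 2.94 when single libraries were left out. Of the 7 pericyte markers in the files, 4 were called higher (Rgs5, Kcnj8, Notch3 and Mcam) and 1 lower, against 19.9% and 20.2% of all genes tested. Rgs5 and Kcnj8 passed the count filter only through siRNA_ANK, so both had to differ and add no weight to this count. The call of Notch3 was lost without siRNA_ANK replicate 2 or negative control replicate 1 (edgeR adjusted p = 0.0531 and 0.0522). That of Mcam was lost without replicate 1 or 2 of siRNA_ANK or replicate 1 or 3 of the controls (edgeR adjusted p from 0.0574 to 0.154). The list summed to 3119 to 3262 CPM in siRNA_ANK and 3282 to 3522 CPM in the controls. Kcnj8, a channel subunit of pericytes, measured 1.63 ± 0.659 CPM in siRNA_ANK and 0.413 ± 0.111 CPM in the controls; like Rgs5 it entered the test only through the siRNA_ANK libraries (8, 5 and 8 counts in the controls), so its p is not given. The pericyte proteoglycan gene Cspg4 was lower at 424 ± 20.8 against 583 ± 61.5 CPM (adjusted p = 0.000154).

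Rgs16 moved the other way. It encodes a small regulator of Gi and Gq signals that is induced by inflammatory and mitogenic stimuli in many cells and is, like Rgs4 and Rgs5, a substrate of the N-degron route. Rgs16 measured 9.29, 12.3 and 10.003 CPM in siRNA_ANK (155, 205 and 158 counts), against 26.8, 37.6 and 25.1 CPM in the negative controls (477, 653 and 402 counts). The siRNA_ANK libraries lay close together and below all controls, and negative control replicate 2 stood above the other controls. Rgs16 fell 2.84-fold, to 10.5 ± 1.56 CPM in siRNA_ANK against 29.8 ± 6.77 CPM in the controls (log2 fold change -1.50 ± 0.17, edgeR adjusted p = 4.80e-05). It ranked 136th from the bottom among the 13016 log2 fold changes. Without negative control replicate 2 and siRNA_ANK replicate 3 it was -1.27.

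Rgs2 fell by a small amount. Its protein is selective for Gq and is activated by the cGMP-dependent kinase in vascular muscle, and mice that lack it have high blood pressure. Rgs2 measured 16.7, 16.1 and 16.2 CPM in siRNA_ANK, against 20.1, 18.9 and 20.8 CPM in the negative controls. The groups did not overlap, and the spread within siRNA_ANK was narrow. The means were 16.3 ± 0.319 CPM in siRNA_ANK and 19.9 ± 0.973 CPM in the controls, 1.22-fold lower in siRNA_ANK (log2 fold change -0.29 ± 0.09, edgeR adjusted p = 0.0180). The call was lost without siRNA_ANK replicate 2 (adjusted p = 0.0504) and without negative control replicate 1 or 3 (adjusted p = 0.0614 and 0.0726), and over the other alternatives the adjusted p ran from 0.0129 to 0.466, the highest being that of a test that asks for more than a 1.2-fold change.

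Rgs3, an R4 gene with long and short protein forms, did not pass the test. It measured 62.3, 69.0 and 70.2 CPM in siRNA_ANK, against 69.4, 83.2 and 65.8 CPM in the negative controls, so that the groups overlapped. Its log2 fold change was -0.12 ± 0.08 (edgeR adjusted p = 0.299), with a 95% interval of -0.28 to 0.05. The files count all transcripts of a gene together, so these forms cannot be told apart. A locus on the other strand overlaps Rgs3, and another overlaps Rgs12; both had 0 counts, and without a stated strand setting reads of such partners cannot be told apart.

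**Figure D2:**
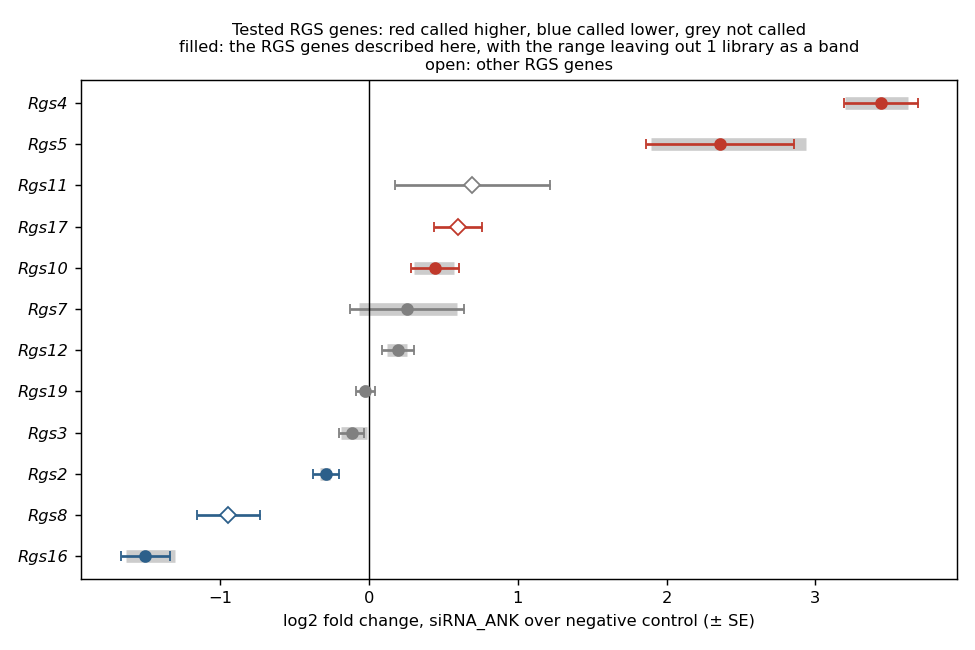
Log2 fold change, siRNA_ANK over negative control, with its SE for the 9 tested RGS genes described here (filled circles, with a grey band for the range when single libraries are left out) and for 3 further tested RGS genes (open diamonds, without a band). Rgs4 (3.44) and Rgs5 (2.36) lie far to the right and Rgs16 (-1.50) far to the left. Rgs19 (-0.02) and Rgs3 (-0.12) lie near 0, and Rgs7 (0.25) has an SE larger than its distance from 0.

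Of the R12 genes, Rgs10 was called higher, Rgs12 was not called and Rgs14 was too rare to test. Rgs10, a short RGS protein that acts on Gi and is best known from immune and glial cells, measured 8.33, 10.1 and 7.22 CPM in siRNA_ANK, against 5.63, 7.37 and 5.87 CPM in the negative controls. The lowest siRNA_ANK library lay just below the highest control, and the means were 8.54 ± 1.43 CPM in siRNA_ANK and 6.29 ± 0.944 CPM in the controls. Rgs10 rose 1.36-fold (log2 fold change 0.44 ± 0.16, edgeR adjusted p = 0.0427), but the call was lost without siRNA_ANK replicate 1 or 2 (adjusted p = 0.0897 and 0.201), without negative control replicate 1 or 3 (adjusted p = 0.161 and 0.129) and with DESeq2 (adjusted p = 0.0638), and over all alternatives the adjusted p ran from 0.00148 to 0.208. Ptprc, the pan-leukocyte marker, was at 0 counts in all 6 libraries.

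Rgs12, a large scaffold with a Ras-binding domain and a GoLoco motif that holds Gi alpha subunits, measured 16.6, 14.97 and 13.7 CPM in siRNA_ANK, against 12.8, 13.9 and 12.9 CPM in the negative controls. The groups overlapped, and the difference did not pass (log2 fold change 0.19 ± 0.11, edgeR adjusted p = 0.164, 95% interval -0.01 to 0.40). Without negative control replicate 2 and siRNA_ANK replicate 3 it passed (log2 fold change 0.29, adjusted p = 0.0469), and over all alternatives the adjusted p ran from 0.0469 to 0.886. Rgs14, its close relative in domain structure, had 2, 0 and 0 counts in siRNA_ANK and 2, 2 and 3 in the negative controls and was too rare to test. The ratio of its summed counts, 2 against 7, was 0.287 with an exact 95% counting interval of 0.0290 to 1.51, which covers counting error only.

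Rgs19, the RZ gene, was the steadiest of the set. Its protein, also called GAIP, is anchored to membranes through its cysteine string and acts on Gi and related alpha subunits. Rgs19 measured 46.0, 44.8 and 44.3 CPM in siRNA_ANK, against 45.4, 46.8 and 45.2 CPM in the negative controls. The groups overlapped within a few percent, with a log2 fold change of -0.02 ± 0.06 (edgeR adjusted p = 0.796) and a 95% interval of -0.15 to 0.10. Rgs7, the R7 gene, is mainly known from neurons and was rare here. It had 26, 13 and 16 counts in siRNA_ANK (1.56, 0.779 and 1.01 CPM), against 15, 23 and 10 in the negative controls (0.844, 1.32 and 0.625 CPM). Its groups overlapped widely, and a log2 fold change of 0.25 ± 0.38 (edgeR adjusted p = 0.637) had a 95% interval of -0.50 to 1.01. These few counts left differences of Rgs7 within that interval open.

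Levels can be compared between genes only per length, for which TPM were computed from the counts and the gene lengths in the files. Rgs19 had the highest TPM of all RGS genes in both groups, at 78.3 ± 2.35 TPM in siRNA_ANK and 81.0 ± 1.36 TPM in the controls. Among the 10 members it was followed in siRNA_ANK by Rgs3 (31.1 ± 1.72 TPM), Rgs2 (26.9 ± 0.731), Rgs10 (20.1 ± 3.52), Rgs16 (11.8 ± 1.77), Rgs4 (10.7 ± 2.47), Rgs12 (6.49 ± 0.686), Rgs5 (2.18 ± 0.329), Rgs7 (0.497 ± 0.182) and Rgs14 (0.0366 ± 0.0634), and in this order Rgs16 and Rgs4 did not differ beyond their spread. In the controls, again among the 10 members, Rgs3 (34.3 ± 4.18 TPM), Rgs16 (34.0 ± 7.58) and Rgs2 (33.5 ± 1.85) stood level within their spread, followed by Rgs10 (15.1 ± 2.24), Rgs12 (5.77 ± 0.245) and Rgs4 (1.01 ± 0.325). Rgs5 (0.430 ± 0.314 TPM) and Rgs7 (0.421 ± 0.160) could not be told apart there, and Rgs14 (0.128 ± 0.0407) was the lowest member. Of the other RGS genes, Rgs17 had 10.7 ± 1.93 TPM in siRNA_ANK and 7.17 ± 1.38 TPM in the controls, and Rgs8 had 1.94 ± 0.483 and 3.82 ± 0.435 TPM. Rgs4 and Rgs16 thus had like TPM levels in siRNA_ANK, while in the controls Rgs16 was far above Rgs4 in every library.

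**Figure D3:**
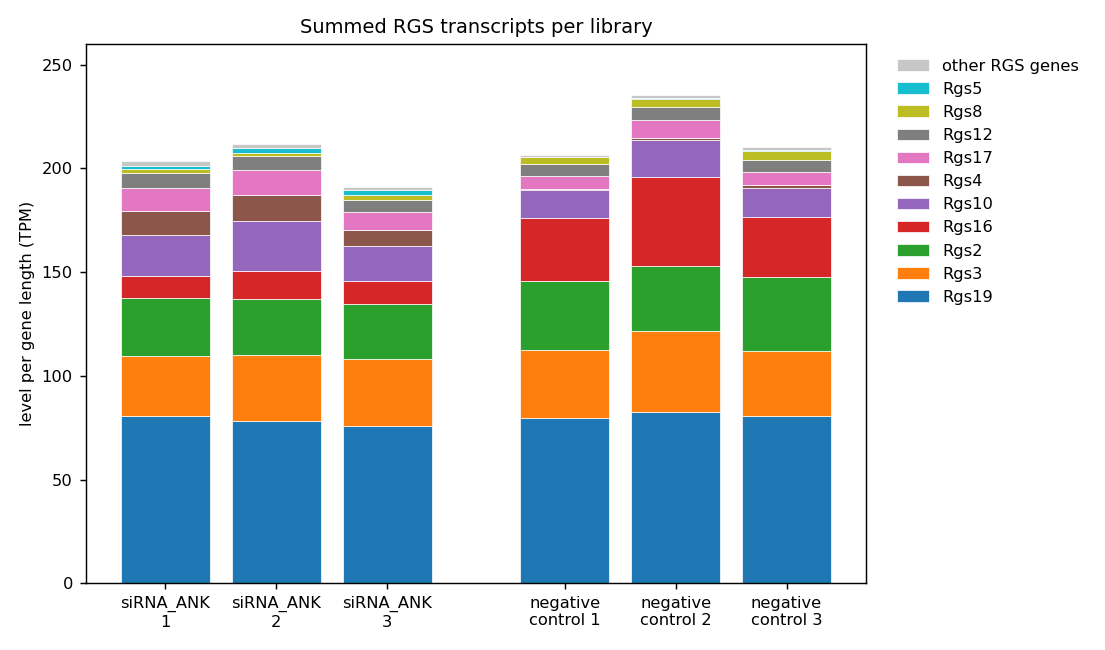
Summed level per gene length (TPM) of the 21 RGS genes in the files, stacked by gene, for siRNA_ANK replicates 1 to 3 (left) and negative control replicates 1 to 3 (right). The total stays between 191 and 236 TPM in the 6 libraries; the Rgs16 segment is thinner and the Rgs4 segment thicker in siRNA_ANK, and the Rgs19 segment is nearly constant.

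The sum over all 21 RGS genes in the files was 204, 212 and 191 TPM in siRNA_ANK, against 207, 236 and 210 TPM in the negative controls, so the groups overlapped. Its make-up differed more than its size. Rgs4 held 5.26 ± 0.980% of the summed RGS TPM in siRNA_ANK and 0.461 ± 0.147% in the controls (SD, n = 3 each). Rgs16 held 5.82 ± 0.680% in siRNA_ANK and 15.5 ± 2.30% in the controls, and Rgs19 held 38.8 ± 1.62% and 37.3 ± 2.04%. The R4 genes together made up 41.9 ± 1.34% of RGS TPM in siRNA_ANK and 49.2 ± 1.11% in the controls, and the R12 genes 13.2 ± 1.23% and 9.63 ± 0.431%. These shares are given as a description, with no test.

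Of the 11 other RGS genes, 3 were tested. Rgs17, an RZ gene whose protein acts on Gz and Gi, measured 11.99, 13.5 and 9.50 CPM in siRNA_ANK, against 6.75, 9.44 and 6.93 CPM in the negative controls. It was 1.51-fold higher in siRNA_ANK (log2 fold change 0.60 ± 0.16, edgeR adjusted p = 0.00908), with the lowest siRNA_ANK value barely above the highest control, and the call did not hold without negative control replicate 1 (adjusted p = 0.0530). Rgs8, a brain-enriched R4 gene next to Rgs16, measured 2.22, 2.34 and 3.48 CPM in siRNA_ANK, against 4.56, 5.30 and 5.62 CPM in the negative controls, 1.93-fold lower in siRNA_ANK (log2 fold change -0.95 ± 0.21, adjusted p = 0.00236). Rgs11, an R7 gene annotated as a pseudogene in the files, did not pass at 0.666 ± 0.250 CPM in siRNA_ANK and 0.412 ± 0.263 CPM in the controls (adjusted p = 0.318). Rgs22 had 20 counts in each group, Rgs9 had 7 counts in siRNA_ANK and 0 in the controls, Rgs20 had 4 and 0, and Rgs1, Rgs6, Rgs13, Rgs18 and Rgs21 had no count in any library.

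Of the neighbouring genes, Rgs8 and Rgs16 were both lower. Rgs4 was higher and its neighbour Rgs5 had more counts in siRNA_ANK as well, but Rgs5 had to differ once it passed the filter, so no joint change is read from that pair. Some genes around them were looked at after these values were seen. An unnamed locus 6917 bases before Rgs8 did not pass (log2 fold change -0.47 ± 0.39, adjusted p = 0.360), nor did Npl (adjusted p = 0.416). Near Rgs5, the mitotic gene Nuf2, 113537 bases away, did not pass (log2 fold change 0.43 ± 0.19, adjusted p = 0.0925). Beyond Rgs4, Hsd17b7, a gene of sterol synthesis 230110 bases away, was higher in siRNA_ANK (log2 fold change 0.56 ± 0.18, adjusted p = 0.0221), a call lost without siRNA_ANK replicate 2 or negative control replicate 1 (adjusted p = 0.110 and 0.108); it shares its span with a gene on the opposite strand, so the reads of both are uncertain.

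The genes whose values over the 6 libraries were most like those of Rgs4 were Cxcl12, Rasgrp3 and Parm1, measured by the root mean square difference of log2 CPM after centring each gene on its own mean (0.26, 0.27 and 0.31). Cxcl12 encodes a chemokine whose receptor couples to Gi, and it measured 61.8 CPM in siRNA_ANK and 5.53 CPM in the controls on average. Those most like Rgs16 were Rap1gap2, which encodes an activator of GTP hydrolysis by the small G protein Rap, Spp1, the gene of osteopontin, and Gja4, the gene of a gap junction protein of vessels (0.11, 0.20 and 0.21). Rap1gap2 measured 4.35 CPM in siRNA_ANK and 10.8 CPM in the controls. These likenesses are a description over 6 libraries, with no test.

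Partners of the RGS proteins were called in both directions. Of 16 tested genes that bind RGS proteins, act beside them or degrade them, 3 were higher and 2 lower (31.2% called, against 40.1% of all genes tested), with a median log2 fold change of 0.11. The number of higher partners rested on siRNA_ANK replicate 3, without which it was 8. The largest called fold was that of Gpsm2, whose protein binds Gi alpha subunits, at 17.2 ± 4.75 CPM in siRNA_ANK and 9.57 ± 1.99 CPM in the controls, with overlapping groups (1.796-fold higher, adjusted p = 0.0168). Its call was lost without siRNA_ANK replicate 2 (adjusted p = 0.0516) and without negative control replicate 1 or 3 (adjusted p = 0.0681 and 0.0581). Rgs7bp, which anchors R7 proteins at the membrane, measured 21.3 ± 2.12 CPM in siRNA_ANK and 14.2 ± 1.30 CPM in the controls (1.502-fold higher, adjusted p = 0.000495). Ate1, the arginyl transferase of the N-degron route that degrades RGS4, RGS5 and RGS16 proteins, was 1.24-fold higher at 114 ± 8.29 against 91.7 ± 1.81 CPM (adjusted p = 0.00111). Gipc1, which binds the end of RGS19, was 1.197-fold lower and Ppp1r9b, which encodes the RGS-binding scaffold spinophilin, 1.18-fold lower (adjusted p = 0.00153 and 0.00344). The calls of Ate1, Gipc1 and Ppp1r9b were lost in a test that asks for more than a 1.2-fold change (adjusted p = 0.289, 0.628 and 0.833).

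Among 13 tested proteins that carry an RGS-like domain beside other functions, 3 were higher and 3 lower (46.2% called, against 40.1% of all genes tested), with a median log2 fold change of 0.00. Without negative control replicate 3, 1 was higher. The receptor kinase genes Grk5 and Grk6, which start receptor desensitisation, moved in opposite directions. Grk5 was 1.55-fold higher at 35.5 ± 5.06 CPM in siRNA_ANK against 22.9 ± 0.923 CPM in the controls (adjusted p = 0.000174), and Grk6 was 1.34-fold lower at 33.6 ± 1.24 against 44.9 ± 0.708 CPM (adjusted p = 0.000203). Axin1, a WNT scaffold, and Grk2 were 1.17-fold and 1.15-fold lower (adjusted p = 0.00885 and 0.00932), and these calls were lost against a 1.2-fold change (adjusted p = 0.852 and 0.996).

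**Figure D4:**
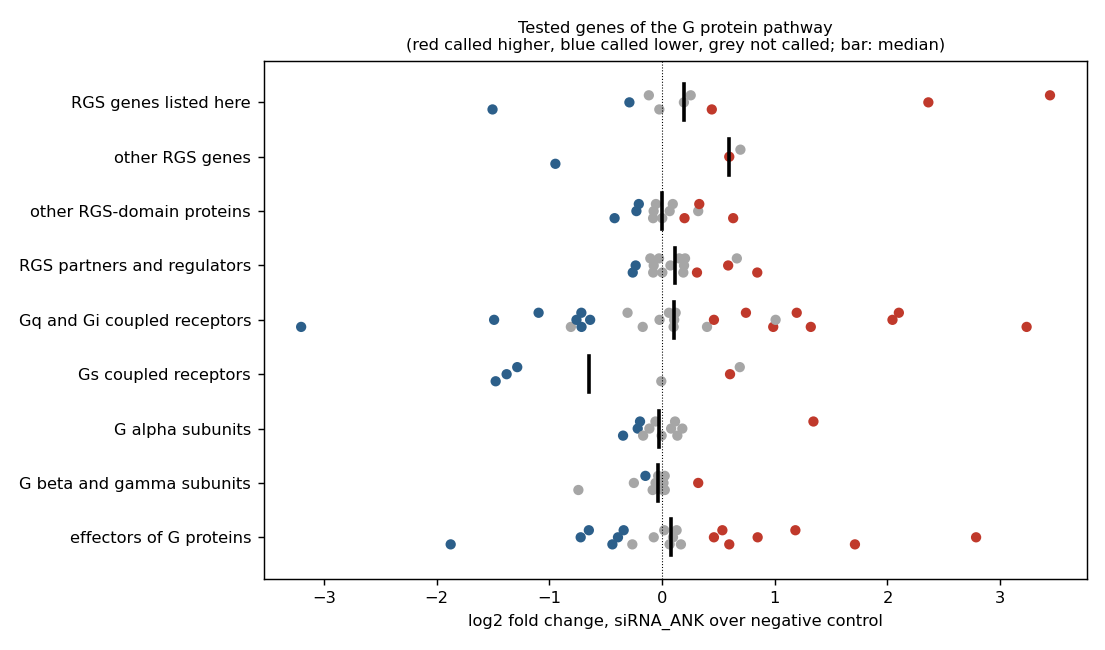
Log2 fold change, siRNA_ANK over negative control, of every tested gene in the 9 lists of the G protein pathway, 1 point a gene (red called higher, blue called lower, grey not called), with the median of each list as a black bar. The RGS genes, the receptors and the effectors hold points beyond 1 in size, while the called subunit genes of the G proteins lie between -0.35 and 0.32 apart from Gna14 at 1.34.

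The receptors upstream of RGS proteins changed in both directions. Of 25 tested genes listed as Gq and Gi coupled receptors, 8 were higher and 7 lower. That is 60.0% called, against 40.1% of all genes tested, with a median log2 fold change of 0.10. The list did not sort receptors by their main G protein. Cxcr4, among those lower, entered the test only through the controls (9, 9 and 3 counts in siRNA_ANK). It therefore had to differ and adds no weight to these shares. Agtr1a, an angiotensin receptor, measured 201 ± 9.35 CPM in siRNA_ANK and 46.7 ± 0.909 CPM in the controls, and Lpar6, a receptor for lysophosphatidic acid, 10.3 ± 0.934 and 4.51 ± 0.644 CPM (adjusted p = 1.52e-11 and 2.37e-05). S1pr3, a receptor for sphingosine 1-phosphate, was 1.69-fold lower at 70.3 ± 2.39 against 119 ± 11.5 CPM, and Ednrb, an endothelin receptor, 9.20-fold lower (adjusted p = 1.16e-06 and 4.48e-06). The log2 fold change of Ednrb was -3.20, and -3.83 without siRNA_ANK replicate 3 and negative control replicate 2. Of 6 tested receptor and accessory genes linked to Gs, 1 was higher and 3 lower (66.7% called, against 40.1%), with a median log2 fold change of -0.65. Ramp3 and Calcrl, which together form a receptor for adrenomedullin, measured 2.27 ± 0.497 and 1.65 ± 0.795 CPM in siRNA_ANK, against 6.31 ± 0.553 and 4.35 ± 0.880 CPM in the controls (adjusted p = 4.02e-05 and 0.00184). The dopamine receptor gene Drd1 was 2.44-fold lower (adjusted p = 0.000570), and Vipr2, a receptor for vasoactive intestinal peptide, was 1.52-fold higher with overlapping groups (adjusted p = 0.0400), a call lost without siRNA_ANK replicate 1 or 2 or negative control replicate 1 or 3 (adjusted p = 0.128, 0.124, 0.128 and 0.130).

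RGS proteins act on the alpha subunits of G proteins. Of 12 tested alpha subunit entries, which stand for 11 genes because Gnas is counted under 2 of them, 1 was higher and 3 lower (33.3% called, against 40.1% of all genes tested), with a median log2 fold change of -0.03. The subunit genes Gna12 and Gna11 were 1.27-fold and 1.16-fold lower at 121 ± 2.33 and 102 ± 3.10 CPM in siRNA_ANK, against 154 ± 3.10 and 118 ± 2.77 CPM in the controls (adjusted p = 0.000115 and 0.00556; 0.0910 and 0.954 against a 1.2-fold change), and Gnas was 1.14-fold lower (adjusted p = 0.0126). The other Gnas entry did not pass (log2 fold change -0.17, adjusted p = 0.783), so that the counts of this gene are uncertain, and the call of the first was lost without siRNA_ANK replicate 1 or negative control replicate 3 (adjusted p = 0.0704 and 0.0778). Gna14, of the Gq class, was rare at 1.10 ± 0.546 CPM in siRNA_ANK and 0.424 ± 0.185 CPM in the controls (log2 fold change 1.34 ± 0.49, adjusted p = 0.0404), and its call was lost without siRNA_ANK replicate 2 or 3 or negative control replicate 2 or 3 (adjusted p = 0.166, 0.0779, 0.100 and 0.145). Of 11 tested beta and gamma subunit genes (18.2% called, against 40.1%), Gng12 was 1.25-fold higher (adjusted p = 0.000311; 0.198 against a 1.2-fold change) and Gnb2 1.11-fold lower (adjusted p = 0.0436). The call of Gnb2 was lost without any of 5 libraries, with adjusted p between 0.0540 and 0.146; siRNA_ANK replicate 3 was the library whose omission kept it.

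Effectors below the G proteins were called in both directions. Of 20 tested genes of phospholipase C beta, adenylyl cyclases, calcium release channels and kinases, 7 were higher and 6 lower (65.0% called, against 40.1% of all genes tested), with a median log2 fold change of 0.08. Plcb4, a phospholipase driven by Gq, measured 81.9 ± 0.824 CPM in siRNA_ANK and 45.5 ± 3.48 CPM in the controls (1.80-fold higher, adjusted p = 2.47e-07). The adenylyl cyclase genes Adcy2 and Adcy5 were 6.90-fold and 3.27-fold higher, at 7.86 ± 0.940 and 31.4 ± 5.52 CPM in siRNA_ANK against 1.13 ± 0.217 and 9.58 ± 0.962 CPM in the controls (adjusted p = 1.68e-07 and 4.43e-07). Other adenylyl cyclases were lower: Adcy8 measured 6.77 ± 1.98 CPM in siRNA_ANK and 24.8 ± 3.91 CPM in the controls (3.67-fold lower, adjusted p = 1.82e-05), and Adcy4, Adcy7 and Adcy3 were 1.57-fold, 1.36-fold and 1.31-fold lower. Adcy6 and Adcy9 were not called. Itpr3, a calcium release channel of internal stores, was 1.65-fold lower at 40.7 ± 1.69 against 67.1 ± 4.02 CPM (adjusted p = 1.56e-06). Its more abundant relative Itpr1 was 1.51-fold higher at 135 ± 12.96 against 89.3 ± 9.56 CPM (adjusted p = 0.000142), and Itpr2 was not called.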

How the data were processed

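Total RNA of 6 libraries was sequenced. The deposited files hold whole-number counts per gene, not normalized, 1 library a file; featureCounts 1.5.0-p3, DESeq2 and the build mRatBN7.2 are named per the submitters' processing notes. The aligner and strand setting: not given in the sources used here. The counts entered edgeR 4.0.16 (R 4.3.3) after filterByExpr (minimum count 10, minimum total 15) and TMM scaling. Groups were compared by its robust quasi-likelihood test, which is two-sided, without covariates, and p-values were Benjamini-Hochberg adjusted across the 13016 genes that passed. A gene was called where the adjusted p fell under 0.05. The SE is the size of the log2 fold change over the square root of F, and its 95% intervals are 1.96 SE to each side. This multiplier is that of a normal distribution and makes these intervals somewhat too narrow for 3 libraries a group. TPM were computed from the counts and the deposited gene lengths. Loci without an Ensembl identifier (385) held 0.306% to 0.339% of counts. An exact permutation test of 3 against 3 cannot go below 0.1, so none is given.

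The members and lists were chosen with earlier results of these data known. Named genes are the 10 members, the other RGS genes with at least 15 counts, Ankh, up to 4 called genes of each list by smallest adjusted p, and the 3 nearest profiles (log2 CPM with a prior count of 0.5, among genes averaging 2 CPM or more) of the called members with the largest rise and fall. The neighbours, the rarer RGS genes, Ptprc, Cxcr4, Gpsm2, Itpr1, Itpr2 and the adenylyl cyclases other than Adcy2 and Adcy5 were named after their values were seen. Replicates differed beyond sampling noise (chi-square per degree of freedom 2.83 to 12.3). A simulation of siRNA_ANK against negative control, with 12753 genes tested, recovered 71.7% of 60 genes at 1.5-fold, 87.5% of 64 at 2-fold and 98.5% of 67 at 4-fold. Of its 178 calls, 13 were false. Only a small share of its genes was changed, while 40.1% of the real genes were called, so these rates need not hold for the real comparison. Alternatives were DESeq2 1.42.0, voom of limma 3.58.1, other scalings and filters, a replicate block, a test against 1.2-fold, and leaving out libraries. Listed genes without a match in the files were not analysed here.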

Additional observations from a re-analysis of the deposited data

How the results depend on the processing

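The directions of Rgs2, Rgs4, Rgs10 and Rgs16 held under every alternative run, and the calls of Rgs4 and Rgs16 held in each of them. Rgs5 was dropped by the 5 CPM filter, and its calls elsewhere say nothing of stability, since it had to differ. Against a 1.2-fold change, 1335 genes were higher and 1142 lower, 1 member was lower (Rgs16), Rgs2 (log2 fold change -0.29) and Rgs10 (0.44) were no longer called, and the lists had 1 higher and 1 lower RGS-domain gene, 0 higher and 0 lower alpha subunits, 0 higher and 0 lower beta or gamma subunits, 0 higher Gs-linked receptors and 1 higher and 0 lower partners. DESeq2 did not call Rgs10 (0.44), and DESeq2, voom and a filter at a mean of 5 CPM left 0 higher alpha subunits. Upper quartile scaling and the 5 CPM filter each left 0 lower beta or gamma subunits and 5 higher partners, and that filter also left 0 other RGS genes and 0 Gs-linked receptors lower. It dropped Gna14, Rgs8, Ramp3, Calcrl and Drd1, whose means over all libraries fell below it, so these genes were not tested there. Without negative control replicate 2 and siRNA_ANK replicate 3 together, Rgs12 was called (0.29), and there were 2 higher other RGS genes, 2 higher Gs-linked receptors and 8 higher partners. When single libraries were left out, the members gave 1 to 2 lower calls and 2 to 3 higher ones, other RGS genes 0 to 1 higher, RGS-domain genes 1 to 4 higher, alpha subunits 0 to 1 higher, beta or gamma subunits 0 to 1 lower, Gs-linked receptors 0 to 2 higher and partners 2 to 8 higher. The log2 fold change then ran from -0.33 to -0.26 for Rgs2 and from 0.30 to 0.57 for Rgs10. Without correction for length, Rgs19 held 23.5% of summed RGS CPM in siRNA_ANK and 22.6% in the controls. With the replicate number as a block, 2579 genes were higher and 2631 lower, and no member's call changed. Deviations of same-numbered libraries correlated at -0.0266, 0.0593 and 0.0437, and those of libraries with other numbers between -0.0856 and 0.0467. With 3 libraries a group, this check showed no clear pairing by number and cannot exclude one. Apart from the genes that the 5 CPM filter dropped, the cause of these shifts was not tested. Depth limits Rgs5, Rgs7 and Rgs14, which had few counts.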
